A study of Caenorhabditis elegans with 24 samples.

Results

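The hrde-1 mutant was compared with the wild type (WT) at 15 °C, in the 3 generations before any heat stress, by sequencing the small RNAs that are antisense to mRNAs. The 6 libraries used are those of 15C-G1, 15C-G2 and 15C-G3 in each genotype, out of 24 libraries in all, and they were taken by their labels. One row per gene was kept, which gave 20167 genes. The mutant carried the tm1200 allele of hrde-1, and WT was the N2 strain. Both strains had been kept at 15 °C on OP50 bacteria, and whole young adults of both were collected 114 to 120 h after release of synchronized L1 larvae. The other 18 libraries followed the same populations for 6 generations at 23 °C (23C-G1 to G6) and then for 3 generations returned to 15 °C (p15C-G1 to G3). A genotype was 1 lineage with 1 library in each generation, so that p-values reflect only how much successive generations of a lineage varied.

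HRDE-1 is an Argonaute protein of the C. elegans germline that carries siRNAs into the nucleus, where they guide transcriptional silencing and H3K9 methylation at matching genes. These siRNAs are secondary siRNAs, made by RNA-dependent RNA polymerases on target mRNAs with the help of the mutator proteins. Other Argonautes bind further classes of them, such as CSR-1, which holds siRNAs against most genes expressed in the germline. Small RNA from whole animals contains all of these classes together, so that a gene's siRNA level is the sum over Argonautes and tissues. In such bulk samples, fewer cells of a type and less siRNA per cell cannot be told apart.

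Values are RPKM (reads normalized to library total and exon length), and no value was 0: each library had a floor that corresponds to 1 read per gene. The origin of this floor is not stated, so that a gene given as at 1 read may have had none. The step between low values gave totals of 509700 to 771600 reads in the 3 mutant libraries and of 369700 to 502700 reads in the 3 WT libraries, and read numbers below are inferred in this way. Each mutant library was thus deeper than each WT library, which put genes at the floor lower in RPKM in the mutant. The 4220 genes at 1 read in all 6 libraries had log2 fold changes of -0.51 to -0.19 from depth alone, and none of them was called. Across 8603 genes (mean of 5 or more reads) log2 values correlated at 0.912 to 0.959 between libraries of 1 genotype and at 0.771 to 0.858 between genotypes. Fold changes are on the log2(RPKM + 1) scale, mutant over WT, with SE, and this scale shrinks the change where siRNA is rare. siRNA against hrde-1 itself amounted to 147, 149.6 and 164 RPKM in the mutant libraries, against 278, 301 and 321 RPKM in WT (log2 fold change -0.96 ± 0.12, adjusted p = 3.4e-06), without overlap. This is below the 2-fold threshold used here, and siRNA over the gene does not by itself check the genotype.

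siRNA differed at many genes, in both directions. A gene was called when its mean changed by at least 2-fold at an adjusted p of at most 0.1 (limma, Benjamini-Hochberg adjustment over all genes tested). Of 19839 genes tested, 738 had higher siRNA in the mutant (3.72% of the genes tested) and 813 had lower siRNA (4.1%), 7.82% together. The libraries of the genotypes did not overlap at 685 of the higher and 774 of the lower genes. Over all genes tested 45.8% did not overlap, and 34.4% did not among genes of at least 5 reads. The larger share includes every gene at the read floor in all 6 libraries. The split between directions depended on scaling and on how low values were handled. With the read floor taken off 824 genes were higher and 681 lower. A fit of only the genes of at least 5 reads gave 696 higher and 661 lower. With median-ratio size factors over all tested genes, chosen after seeing the data, 1119 genes were higher and 510 lower, and the median log2 fold change of all genes was 0.06 with that scaling and -0.19 as deposited. With size factors from genes of at least 5 reads 635 were higher and 959 lower, around a median of -0.28.

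**Figure D1:**
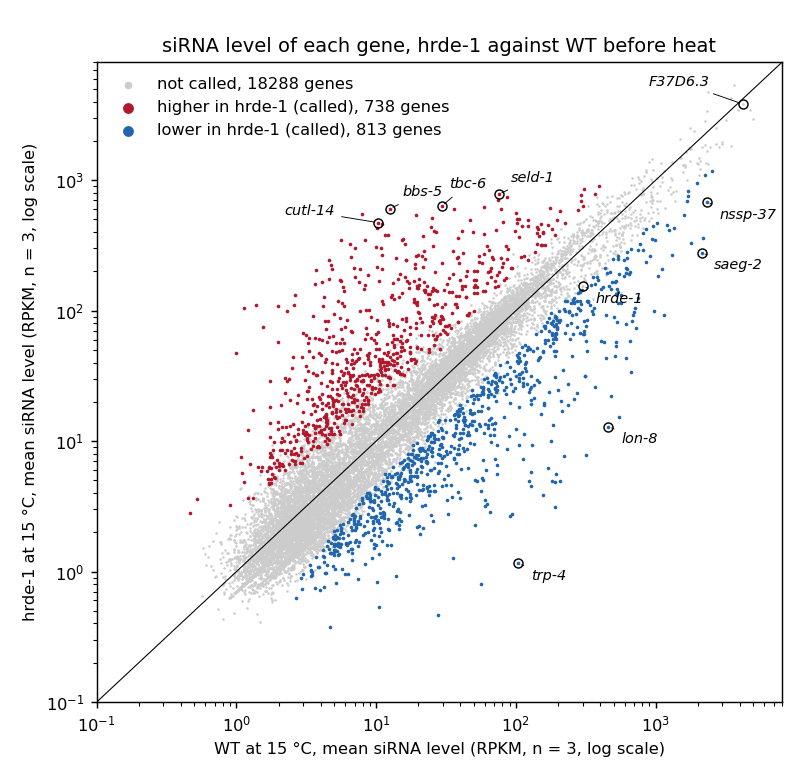
Mean siRNA level of each of 19839 genes in the hrde-1 mutant (vertical, RPKM, log scale) and in WT (horizontal, RPKM, log scale) at 15 °C before heat, n = 3 libraries each, with genes called higher in red, genes called lower in blue, and equal levels on the line. The 738 higher genes lie above the line, with bbs-5 at 602 against 12.5 RPKM, the 813 lower genes lie below it, with trp-4 at 1.15 against 103.8 RPKM in mutant and WT, and F37D6.3 lies close to it.

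The called genes held a large part of the siRNA. After 1 read was taken off every gene, the higher genes took 10.7, 10.4 and 10.5% of the inferred reads in the mutant libraries (G1 to G3), against 2.03, 1.8 and 1.83% in WT. The lower genes took 4.84, 4.28 and 3.75% in the mutant, against 16.7, 15 and 14.5% in WT. The genes were called on these libraries, so the shares describe how much siRNA they held. Median levels were 44.5 RPKM in the mutant and 8.46 RPKM in WT for the higher genes, and 8.86 RPKM in the mutant and 37.5 RPKM in WT for the lower genes. All 3 WT libraries were at 1 read for 52 of the higher genes, and all 3 mutant libraries were at 1 read for 63 of the lower genes. Changes of 8-fold or more were found at 142 higher and 68 lower genes.

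Among the most abundant siRNA targets, more genes were lower than higher. Among the 306 genes with at least 500 RPKM in the genotype where they were higher, 67 were lower (21.9%) and 23 higher (7.52%). In the class of 100 to 500 RPKM the counts were 189 lower and 204 higher of 1581. Below 5 RPKM 39 genes were lower and 9 higher of 8283, and at that level a change is often not detectable at this depth. Among 10816 genes with under 5 inferred reads in the genotype where they were higher, 146 were lower and 22 higher (1.35 and 0.203%). Each mutant library was deeper than each WT library, and the part of depth in this split was not tested. Annotated pseudogenes gave 66 lower and 27 higher of 712 (9.27 and 3.79%), and protein-coding genes gave 714 and 696 of 18489 (3.86 and 3.76%).

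The largest gains, ranked by fold among genes of at least 100 RPKM in the mutant, were at genes with almost no siRNA in WT. Low WT levels follow from that ranking. bbs-5, a subunit of the BBSome that moves cargo in cilia, had 669.8, 609 and 529 RPKM in the mutant libraries, against 9.16, 14.9 and 13.4 RPKM in WT (log2 fold change 5.50 ± 0.27, adjusted p = 9.2e-13). cutl-14, which encodes a cuticlin-like protein, had 471, 507 and 442 RPKM in the mutant libraries, against 15.9, 10.8 and 4.14 RPKM in WT (log2 fold change 5.55 ± 0.39, adjusted p = 2.5e-10). Every mutant library was more than 20 times above every WT library at both genes.

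grl-10, a hedgehog-related gene of the ground-like class, gave 315, 303 and 361 RPKM in the mutant libraries, against 4.24, 8.65 and 6.65 RPKM in WT (log2 fold change 5.49 ± 0.35, adjusted p = 6.3e-11). The SET domain gene set-18 gave 138, 116 and 80.4 RPKM in the mutant libraries, against 1.22, 1.66 and 1.28 RPKM in WT, and all 3 WT values were at 1 read. Against 3 reads in each WT library, its mutant level was at least 26.8-fold higher. For F16B4.4, also at 1 read in each WT library, the same bound was at least 20.9-fold, from 444, 366 and 237 RPKM in the mutant.

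Y61A9LA.7 stood at 645, 551 and 451 RPKM in the mutant libraries, against 10.6, 9.61 and 3.69 RPKM in WT, the largest log2 fold change of the comparison (6.03 ± 0.30, adjusted p = 1.1e-12). C18H2.4, annotated as a pseudogene, stood at 118.5, 108 and 86.9 RPKM in the mutant libraries, against 1.74, 0.95 and 0.730 RPKM in WT and rested on a mean of 765 and 6.00 reads. The remaining genes of this kind were ZK673.4, M88.4 and the chemoreceptor gene srsx-25, with 206 against 3.70 RPKM, 346 against 8.38 RPKM and 245 against 4.61 RPKM on average in mutant and WT. Adjusted p-values of these 10 genes ranged between 1.3e-13 for srsx-25 and 2.9e-10 for M88.4, and none of them overlapped between genotypes, which was a condition for naming them.

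Among the more abundant gained targets, seld-1, which encodes selenophosphate synthetase, had 829.8, 795 and 708 RPKM in the mutant libraries, against 66.5, 61.9 and 96.9 RPKM in WT (log2 fold change 3.38 ± 0.23, adjusted p = 2.0e-10). tbc-6, a Rab GTPase-activating protein gene, had 664, 662 and 569 RPKM in the mutant libraries, against 27.3, 23.4 and 37.5 RPKM in WT (log2 fold change 4.403 ± 0.19, adjusted p = 1.3e-13). Both were among the 10 gained genes with the highest mutant levels, and both were low but above the read floor in WT, with 39.0 and 18.7 reads on average.

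C40A11.7 and H14E04.3 followed the same course, with 795, 774 and 659 RPKM against 66.0, 104.05 and 87.8 RPKM (log2 fold change 3.116) and 784, 679.8 and 663 RPKM against 98.2, 66.8 and 58.6 RPKM (3.26) in mutant and WT. Other abundant targets already had substantial siRNA in WT. They included flp-16, an FMRFamide-like neuropeptide gene, at 929, 1003 and 761 RPKM in the mutant libraries, against 418, 382 and 389.9 RPKM in WT (log2 fold change 1.17 ± 0.12, adjusted p = 7.9e-08). The transcription factor gene mef-2 was at 739, 708 and 623 RPKM in the mutant libraries, against 313, 281 and 279 RPKM in WT (log2 fold change 1.24 ± 0.16, adjusted p = 5.2e-06). Their libraries did not overlap, which was a condition for naming them.

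On the side of losses, trp-4, which encodes a mechanosensory TRPN channel, had 1.31, 1.02 and 1.13 RPKM in the mutant libraries, against 125, 98.0 and 87.95 RPKM in WT (log2 fold change -5.59 ± 0.24, adjusted p = 1.5e-13). dlk-1, a MAP kinase kinase kinase gene known for its role in axon regeneration, had 3.76, 5.62 and 5.57 RPKM in the mutant libraries, against 206, 211 and 201 RPKM in WT (log2 fold change -5.13 ± 0.20, adjusted p = 5.2e-14). lon-8, which acts in body length, had 18.1, 5.80 and 14.8 RPKM in the mutant libraries, against 541, 393 and 443 RPKM in WT (log2 fold change -5.16 ± 0.39, adjusted p = 8.1e-10). The highest mutant value was below the lowest WT value by more than 20-fold at all 3 genes.

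The cadherin gene cdh-12 had 7.35, 4.25 and 5.17 RPKM in the mutant libraries, against 217, 189 and 175 RPKM in WT (log2 fold change -4.91 ± 0.19, adjusted p = 5.2e-14), and the alkyl-dihydroxyacetonephosphate synthase gene ads-1, an enzyme of ether lipid synthesis, had 8.79, 6.27 and 8.28 RPKM in the mutant libraries, against 373, 265 and 316 RPKM in WT (log2 fold change -5.18 ± 0.25, adjusted p = 8.3e-13). F19B2.6, E02H9.9, the kinase gene cdk-14 and the X-linked pseudogene Y73B3A.7 were lost to the same degree, with means of 3.14 against 191 RPKM, 15.2 against 546 RPKM, 4.83 against 191 RPKM and 3.88 against 155 RPKM in mutant and WT. In the mutant these genes still held some reads, 5.33 per library on average for cdk-14 and 64.6 for cdh-12.

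**Figure D2:**
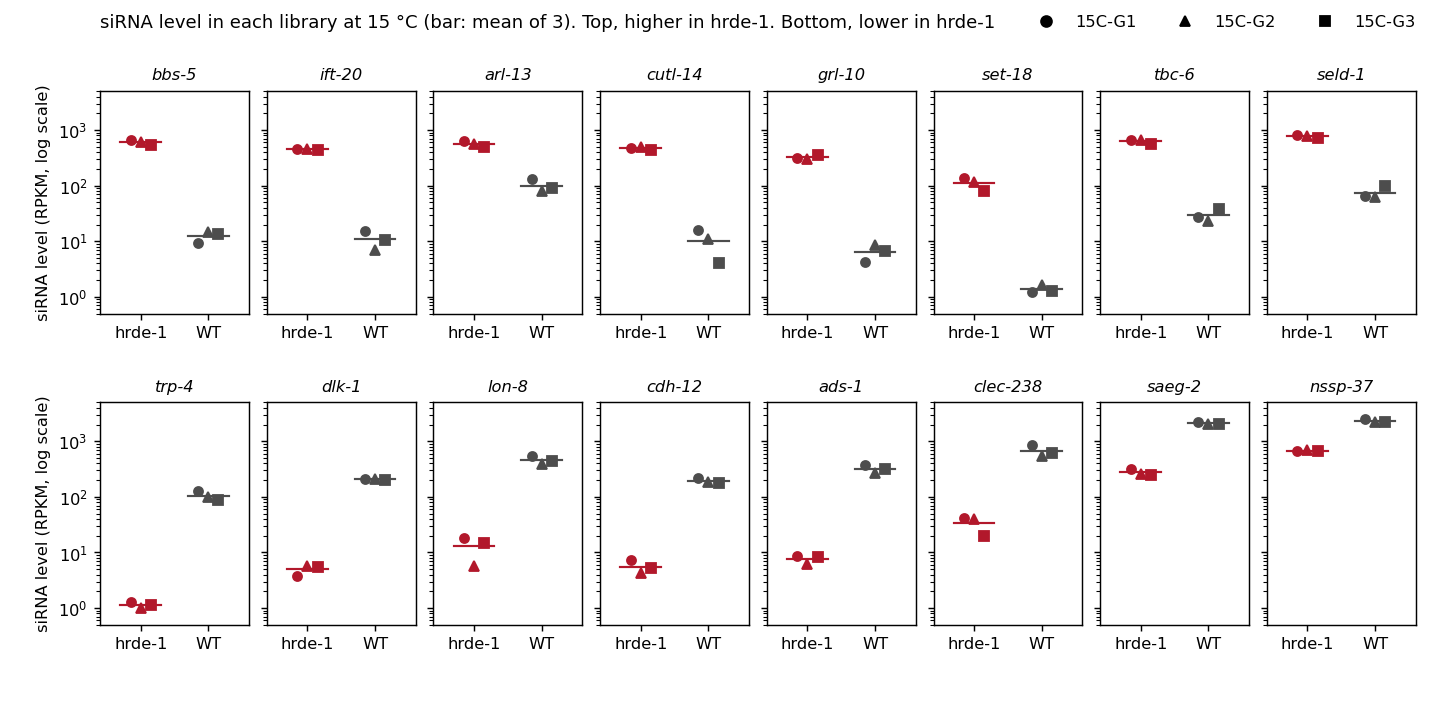
siRNA level (RPKM, log scale) of 8 genes that were higher (top) and 8 that were lower (bottom) in the hrde-1 mutant, with hrde-1 left of WT, a symbol per generation at 15 °C and a bar at the mean of 3 libraries. The symbols of the genotypes do not overlap at any of the 16 genes, which was a condition for naming most of them. Over all genes tested 45.8% did not overlap. The spread within a genotype is small beside the gap, as for bbs-5 (669.8, 609 and 529 RPKM in the mutant).

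The most abundant targets that lost siRNA kept part of it. nssp-37, a gene for a nematode-specific peptide, had 666, 687 and 672 RPKM in the mutant libraries, against 2493, 2236 and 2208 RPKM in WT (log2 fold change -1.77 ± 0.13, adjusted p = 6.3e-10). saeg-2, whose product works with the kinase EGL-4, had 324, 254 and 252 RPKM in the mutant libraries, against 2267, 2070.0 and 2068 RPKM in WT (log2 fold change -2.95 ± 0.13, adjusted p = 1.3e-13). The ribonuclease H gene rnh-1.3 had 219.6, 380.0 and 473 RPKM in the mutant libraries, against 2455, 2248 and 1854 RPKM in WT (log2 fold change -2.67 ± 0.23, adjusted p = 5.6e-09).

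Smaller but clear losses were seen at bath-20, a gene of the MATH and BTB domain family, with 1251, 1193 and 1088 RPKM against 2712, 2465 and 2374 RPKM in mutant and WT (log2 fold change -1.10 ± 0.09, adjusted p = 4.3e-09). The pseudogenes F37H8.2, Y48G1BM.8 and E01G4.7 lost siRNA to a like extent, with means of 1091 against 2243 RPKM, 956 against 1968 RPKM and 759 against 1709 RPKM. At these 4 genes and at T01A4.3 and C46C2.3 the change lay near 2-fold, and with the scaling over all tested genes it no longer reached 2-fold at any of the 6.

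Abundant targets with a log2 fold change under 0.3 in size were also taken, and they are given as levels only. F37D6.3 had 4067, 4216 and 3229.6 RPKM in the mutant libraries, against 4482, 4387 and 3759 RPKM in WT (log2 fold change -0.14 ± 0.11, adjusted p = 0.39). F59C12.4 had 3739, 3862 and 2786 RPKM against 4201, 4048 and 3327 RPKM in mutant and WT (log2 fold change -0.16, adjusted p = 0.57), and K08F11.1 had 3144, 3124 and 2347 RPKM against 3239, 3340.0 and 2940.4 RPKM (-0.15, adjusted p = 0.34). The genotypes overlapped at all 3 genes. At this abundance the error was small, as for T22B2.2 with 2121, 1784 and 1417 RPKM against 2060.5, 1585 and 1642 RPKM and the F-box gene fbxb-14 with 1906, 1839 and 1432 RPKM against 1959.6, 1668 and 1748 RPKM in mutant and WT (SE of the log2 fold change 0.13 and 0.12).

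Genes of the RNAi machinery itself were examined list by list. At the shares of all genes tested (3.72% higher and 4.1% lower), lists of this size would hold about 1 call per direction or none, so that their counts say little about the lists. siRNA against the 23 Argonaute genes gave 0 calls in either direction by limma, with 5 higher and 1 lower at an unadjusted p under 0.05. Of all 19839 genes tested, 1901 were higher and 2262 lower at that unadjusted p, the background for such counts in every list. Their median log2 fold change was 0.09, against -0.19 over all genes tested, and it turned to -0.02 with size factors from genes of at least 5 reads. wago-1 and the Piwi gene prg-1 passed the p threshold without reaching 2-fold, with 127 ± 12.99 RPKM in the mutant and 81.6 ± 7.73 RPKM in WT (log2 fold change 0.64 ± 0.14, adjusted p = 0.0029) and 589 ± 83.2 RPKM in the mutant and 406 ± 49.1 RPKM in WT (log2 fold change 0.53 ± 0.12, adjusted p = 0.0032; SD, n = 3).

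csr-1 had 329 ± 17.4 RPKM in the mutant and 257 ± 20.2 RPKM in WT (log2 fold change 0.36, adjusted p = 0.067), and wago-4, an Argonaute of siRNA inheritance, had 394 ± 44.2 RPKM in the mutant and 338 ± 47.3 RPKM in WT (0.22, adjusted p = 0.29). Nuclear RNAi and heterochromatin genes gave 0 calls among 16 as well (3 higher and 3 lower at an unadjusted p under 0.05). nrde-2, a partner of HRDE-1 in nuclear silencing, had 295 ± 22.3 RPKM in the mutant and 237 ± 27.2 RPKM in WT (adjusted p = 0.11), and the H3K9 methyltransferase gene set-25 had 63.6 ± 3.58 RPKM in the mutant and 91.4 ± 10.9 RPKM in WT (log2 fold change -0.51 ± 0.18, adjusted p = 0.085).

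Among 19 RNA-dependent RNA polymerase and mutator genes, 1 was lower and 0 were higher (2 at an unadjusted p under 0.05). It was rrf-2, a polymerase paralog, with 27.7, 21.4 and 19.01 RPKM in the mutant libraries, against 56.5, 54.4 and 47.2 RPKM in WT (log2 fold change -1.19 ± 0.24, adjusted p = 0.0012). ego-1, the germline polymerase, had 78.9 against 78.4 RPKM (0.02, adjusted p = 0.94), and mut-16, the scaffold of mutator foci, had 38.2 against 46.6 RPKM (-0.28, adjusted p = 0.29).

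In the Dicer and ERI group 1 of 17 genes was lower and 0 were higher (1 at an unadjusted p under 0.05). eri-6, a helicase gene of the primary siRNA pathway, had 35.5, 26.3 and 29.4 RPKM in the mutant libraries, against 117, 89.2 and 111 RPKM in WT (log2 fold change -1.77 ± 0.21, adjusted p = 1.9e-06). The germ granule list also had 1 lower of 18 and 0 higher (8 at an unadjusted p under 0.05), the P granule gene meg-4 (7.01, 5.87 and 6.78 RPKM against 16.4, 20.7 and 17.1 RPKM in mutant and WT, log2 fold change -1.33 ± 0.25, adjusted p = 7.4e-04). glh-1, a germ granule helicase gene, had 376 against 272 RPKM (log2 fold change 0.47 ± 0.13, adjusted p = 0.016). The 18 tested genes of the piRNA pathway gave 0 calls, around a median of 0.41. At an unadjusted p under 0.05, 9 were higher and 1 lower, beside 1901 and 2262 of all 19839 genes tested.

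siRNA against F-box genes, a large family of substrate adaptors for ubiquitin ligases, was lower in many members. Of 362 tested, 69 were lower and 3 higher (19.1 and 0.829%, beside 4.1 and 3.72% of all genes tested), and the median was -0.46 against -0.19 over all genes. Summed over the family, the level was 14868, 13833 and 11959.6 RPKM in the mutant, against 24379, 21669.8 and 21407 RPKM in WT. The sums did not overlap. fbxa-166 had 6.36, 1.66 and 5.50 RPKM in the mutant libraries, against 102.9, 156 and 127 RPKM in WT (log2 fold change -4.67 ± 0.38, adjusted p = 2.7e-09), and fbxa-120, on the X chromosome, had 49.8, 49.1 and 36.7 RPKM in the mutant libraries, against 550.4, 489 and 495 RPKM in WT (log2 fold change -3.48 ± 0.19, adjusted p = 3.9e-12). The 3 that rose included fbxa-125 (289, 217 and 245 RPKM against 18.4, 24.96 and 23.97 RPKM in mutant and WT). Some F-box genes are near-identical, and 21 had the same values as another gene, so that single members are uncertain.

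The related MATH and BATH genes, which share the MATH domain of ubiquitin ligase adaptors, had 11 lower and 2 higher of 84 (13.1 and 2.38%), also around a median of -0.46. Their summed level was 6859.8, 6533 and 5807 RPKM in the mutant, against 11114, 9713 and 9670.3 RPKM in WT. math-43 fell to 9.603 ± 3.98 RPKM in the mutant, against 47.1 ± 2.83 RPKM in WT, and math-31 went the other way with 203 ± 6.31 RPKM in the mutant and 52.3 ± 18.02 RPKM in WT (log2 fold changes -2.25 and 1.99). With the scaling over all tested genes 47 F-box and 5 MATH or BATH genes were lower, and with a pseudocount of 10 RPKM 39 and 6 were.

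Genes of the sperm went the other way in part of the libraries. Major sperm proteins are the cytoskeletal proteins of nematode sperm. Of the 30 genes for them 15 were higher and 0 lower (50 and 0%, beside 3.72 and 4.1% of all genes tested). Their median log2 fold change was 1.31, and 0 were lower at an unadjusted p under 0.05. siRNA against them varied between the mutant libraries, with sums of 410, 1093 and 1689 RPKM in 15C-G1, G2 and G3, against 252, 391 and 401 RPKM in WT. Mutant G1 thus lay close to the WT range and mutant G3 far above it. Without mutant G3 2 genes were higher, without mutant G2 8, and without mutant G1 26. Leaving out WT G1 left 7.

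The 65 other sperm genes showed the same spread, with sums of 906, 1817 and 3081 RPKM in the mutant, against 756, 1099 and 1074 RPKM in WT. Of these genes 6 were higher and 2 lower (9.23 and 3.08%, beside 3.72 and 4.1% of all genes tested). The higher count was 3 without mutant G3 and 17 without mutant G1. msp-3 had 19.2, 54.1 and 78.6 RPKM in the mutant libraries, against 10.4, 6.14 and 13.4 RPKM in WT (log2 fold change 2.08 ± 0.42, adjusted p = 0.0015), and spe-51, a sperm gene, had 27.5, 29.03 and 30.1 RPKM in the mutant libraries, against 1.40, 5.72 and 8.79 RPKM in WT (log2 fold change 2.47 ± 0.47, adjusted p = 7.7e-04). spe-41, a sperm channel gene needed for fertilization, went down, with 13.5, 11.05 and 18.5 RPKM in the mutant libraries, against 52.3, 46.7 and 46.0 RPKM in WT (log2 fold change -1.71 ± 0.29, adjusted p = 1.9e-04). Major sperm protein genes are near-identical and held few reads each (14.8 and 2.05 for msp-3, where the lowest library was taken as 1 read), so that single members are uncertain. In the other 18 libraries the sums spanned 309 to 1727 RPKM for the major sperm proteins and 893 to 3373 RPKM for the other sperm genes.

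**Figure D3:**
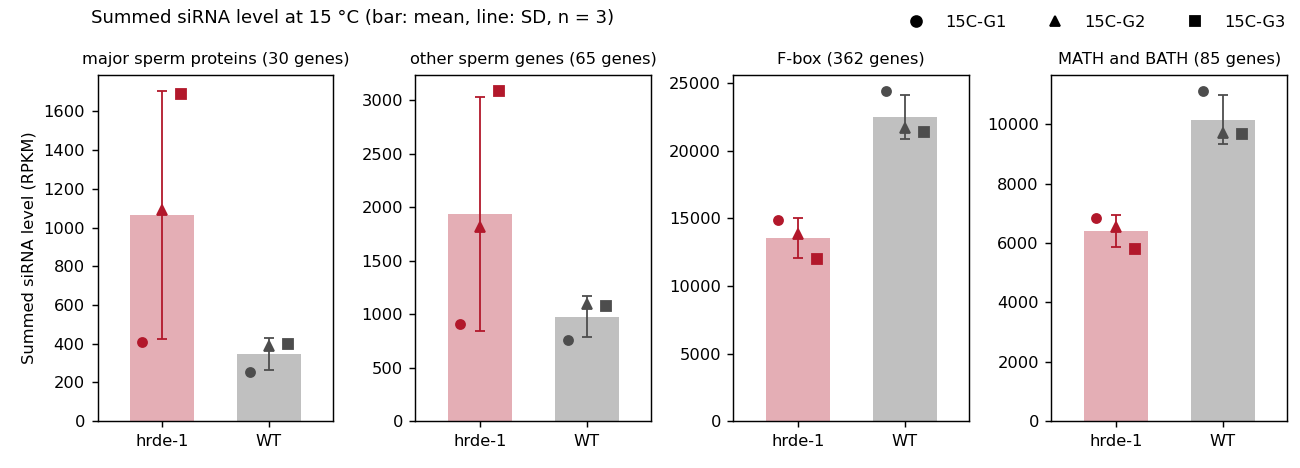
Summed siRNA level (RPKM) at 15 °C of 30 major sperm protein genes, 65 other sperm genes, 362 F-box genes and 85 MATH and BATH genes, with hrde-1 left of WT, a symbol per generation, bars at the mean and lines for the SD (n = 3). F-box and MATH sums are lower in all 3 mutant libraries, and the sperm sums spread from near the WT level in mutant G1 to several times it in mutant G3 (410 and 1689 RPKM for the major sperm proteins).

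The libraries hold siRNA over genes that mark several tissues. Counts of called markers stand beside 3.72% higher and 4.1% lower of all genes tested. Counts at an unadjusted p under 0.05 stand beside 1901 higher and 2262 lower of all 19839 genes tested. The 10 germline and 10 oocyte marker genes gave 0 calls each (4 and 3 higher at an unadjusted p under 0.05, none lower), with summed levels of 1285 to 1703 RPKM in the mutant against 1057 to 1324 RPKM in WT for the germline, and of 838 to 877 RPKM against 675 to 734 RPKM for the oocyte. Intestine markers, with sums of 16.3 to 31.2 RPKM in the mutant and 16.5 to 24.99 RPKM in WT, were near the read floor, among them the vitellogenin gene vit-2 (2.397 against 1.99 RPKM). The 9 sperm markers had 2 lower and 0 higher (0 at an unadjusted p under 0.05), with sums of 29.2, 62.4 and 103.1 RPKM in the mutant, against 95.5, 91.9 and 85.6 RPKM in WT. Of 8 tested epidermis markers 1 (the collagen gene dpy-13, 1.82 against 5.80 RPKM in mutant and WT) was lower and 0 were higher (0 at an unadjusted p under 0.05). These sums are of siRNA and not of mRNA, and their part in the results was not tested. The number of called genes was 582 higher and 649 lower without mutant G3, the library with the most sperm siRNA, and 1008 higher and 886 lower without mutant G1.

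siRNA against single ciliary and neuronal genes changed strongly. Of 43 tested genes of the cilium and of transport in it, 9 were higher and 3 lower (20.9 and 6.98%, beside 3.72 and 4.1% of all genes tested). Their median was -0.08 over all 43, with signs that differed between scalings, and 0.46 over the 20 of at least 5 reads. Besides bbs-5, ift-20, a subunit of the intraflagellar transport machinery, had 458 ± 10.9 RPKM in the mutant and 10.97 ± 4.19 RPKM in WT (SD, n = 3, log2 fold change 5.32 ± 0.45, adjusted p = 5.9e-09), and arl-13, a small GTPase of the ciliary membrane, had 637, 559 and 489 RPKM in the mutant libraries, against 132, 80.2 and 89.6 RPKM in WT (log2 fold change 2.49 ± 0.15, adjusted p = 3.7e-11). bbs-1, another subunit of the same complex as bbs-5, moved the other way, with 0.870, 1.13 and 0.750 RPKM in the mutant libraries, against 19.5, 10.9 and 10.8 RPKM in WT (log2 fold change -2.90 ± 0.31, adjusted p = 2.6e-07). The mutant libraries were at 1 read each there, so that the level was at least 5.01-fold lower against 3 reads in each.

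Of 9 tested neuronal markers 4 were higher and 0 lower (44.4 and 0%, beside 3.72 and 4.1% of all genes tested). Log2 fold changes of the 9 ranged from -0.99 to 2.90, and 1 was lower at an unadjusted p under 0.05. The kinesin gene unc-104 had 26.6, 25.1 and 18.1 RPKM in the mutant libraries, against 2.25, 2.04 and 2.35 RPKM in WT (log2 fold change 2.90 ± 0.37, adjusted p = 4.4e-06), and unc-119 had 60.7, 61.5 and 60.9 RPKM in the mutant libraries, against 31.2, 21.2 and 27.1 RPKM in WT (log2 fold change 1.19 ± 0.26, adjusted p = 0.0035). egl-3, a convertase of neuropeptides, and rab-3, a synaptic vesicle GTPase, had 10.02 against 2.21 RPKM and 24.4 against 10.6 RPKM on average (adjusted p = 0.0075 and 0.068). The call of rab-3 was lost under 7 alternatives. snb-1, the synaptobrevin gene, had 47.9 against 48.6 RPKM (0.01, adjusted p = 0.97).

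Ion channel genes gave 11 higher and 7 lower of 231 (4.76 and 3.03%), close to the share of all genes tested (3.72 and 4.1%). The olfactory channel gene tax-4 had 52.5, 51.9 and 37.4 RPKM in the mutant libraries, against 0.870, 1.18 and 0.910 RPKM in WT, at least 15.96-fold higher than 3 reads in each WT library. best-18 and best-8, both of the bestrophin family, went in opposite directions, with 62.0 against 3.28 RPKM and 5.04 against 50.8 RPKM in mutant and WT (log2 fold changes 3.98 and -3.10). In body muscle markers unc-87, an actin-binding protein gene, rose (71.7, 75.5 and 75.7 RPKM in the mutant libraries, against 2.13, 1.16 and 1.33 RPKM in WT, log2 fold change 4.91 ± 0.30, adjusted p = 2.5e-11) and the myosin heavy chain gene unc-54 fell (0.660, 0.290 and 0.660 RPKM in the mutant libraries, against 10.2, 12.5 and 8.83 RPKM in WT, log2 fold change -2.90 ± 0.44, adjusted p = 4.6e-05). They were the 2 called of 6 tested, beside 7.82% of all genes tested called in either direction.

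Histone genes gained siRNA in 7 of 79 members and lost it in 0 (4 lower at an unadjusted p under 0.05), around a median of 0.32. These are 8.86% higher, beside 3.72% of all genes tested, and the count depended on the processing, with 19 under the scaling over all tested genes, 12 with the read floor taken off, 5 with the 6 libraries alone and 4 with a pseudocount of 10 RPKM. his-41, an H2B gene, had 86.9, 85.2 and 80.1 RPKM in the mutant libraries, against 8.83, 14.28 and 13.5 RPKM in WT (log2 fold change 2.71 ± 0.19, adjusted p = 3.5e-10). his-52 and his-54 had the same values in every library (138, 132 and 114 RPKM against 46.5, 44.6 and 40.2 RPKM in mutant and WT) and count as 1 measurement. The gain at his-70 rested on mutant G2 and G3 (15.8, 67.96 and 112 RPKM in the mutant libraries, against 6.27, 22.1 and 10.9 RPKM in WT), its ranges overlapped, and its call was lost without either of them. Ribosomal protein genes gave 2 lower of 78 (2.56%, beside 4.1% of all genes tested) and 0 higher (9 at an unadjusted p under 0.05). Both lower genes held under 10 reads.

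In several large families siRNA changed in single members, and their counts are set beside 3.72% higher and 4.1% lower of all genes tested. The 1393 tested 7TM chemoreceptor genes had 9 higher and 24 lower (0.646 and 1.72%), and 994 of the measured members were at 1 read in all 3 mutant libraries. sru-17 and srg-34 were examples, with 40.8, 55.3 and 37.2 RPKM against 4.01, 2.72 and 2.09 RPKM and 5.97, 9.76 and 3.87 RPKM against 92.04, 61.9 and 64.1 RPKM in mutant and WT (log2 fold changes 3.54 and -3.34). Nuclear hormone receptor genes had 10 higher and 21 lower of 278 (3.6 and 7.55%), among them nhr-15 (186, 178 and 189 RPKM in the mutant libraries, against 1154, 967 and 997 RPKM in WT, log2 fold change -2.49 ± 0.14, adjusted p = 7.7e-12). C-type lectin genes had 5 higher and 7 lower of 259 (1.93 and 2.7%), led by clec-238 (41.7, 39.6 and 19.6 RPKM in the mutant libraries, against 842, 551 and 605 RPKM in WT, log2 fold change -4.32 ± 0.45, adjusted p = 1.9e-07). These splits depended on scaling. With the scaling over all tested genes 14 chemoreceptor genes were higher and 15 lower, 14 receptor genes of the nuclear hormone family were higher and 13 lower, and 8 lectin genes were higher and 4 lower.

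Cuticlin genes had 2 higher and 2 lower of 35 (5.71% each way). Shares in this paragraph stand beside 3.72% higher and 4.1% lower of all genes tested. The summed level of the cuticlin genes was 785, 798 and 707 RPKM in the mutant, against 337, 324 and 271 RPKM in WT. The gains at cutl-14 and at cutl-26 together exceeded the difference between the sums (199.99, 143 and 136 RPKM against 1.28, 6.94 and 2.66 RPKM for cutl-26 in mutant and WT), while cutl-10 lost siRNA (21.7, 23.6 and 13.5 RPKM against 177, 165 and 132 RPKM). Hedgehog-related genes had 3 higher and 1 lower of 54 (5.56 and 1.85%), with wrt-5 (348, 254 and 319 RPKM in the mutant libraries, against 12.57, 4.27 and 13.1 RPKM in WT, log2 fold change 4.93 ± 0.33, adjusted p = 1.2e-10) next to grl-10. Collagen genes had 2 higher and 2 lower of 174 (1.15% each way), and insulin and neuropeptide genes 3 and 4 of 149 (2.01 and 2.68%). Among 188 ugt, cyp and gst genes of xenobiotic metabolism 5 were higher and 4 lower (2.66 and 2.13%). ugt-22, which encodes a glucuronosyltransferase, had 184, 158 and 173 RPKM in the mutant libraries, against 7.34, 3.99 and 5.11 RPKM in WT (log2 fold change 4.77 ± 0.33, adjusted p = 1.9e-10).

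**Figure D4:**
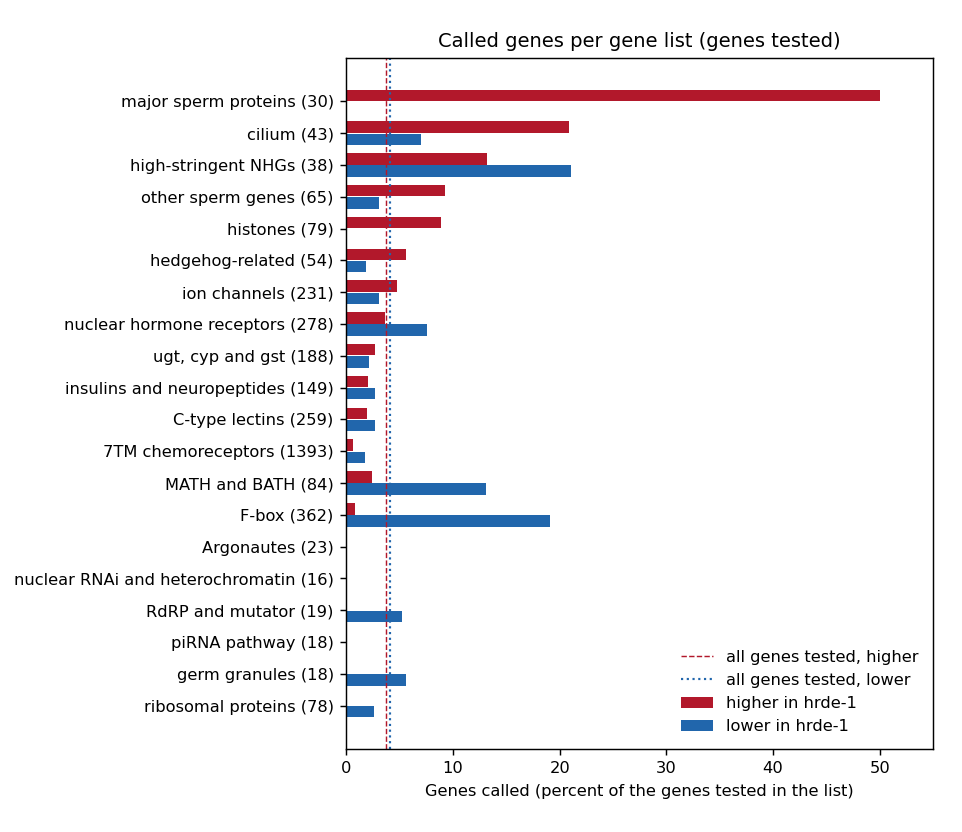
Percent of the tested genes of 20 gene lists (number of genes in brackets, tissue markers and some lists of few calls not shown) that were called higher (red) or lower (blue) in the hrde-1 mutant at 15 °C, with dashed and dotted lines at the shares of all genes tested (3.72 and 4.1%). Major sperm protein and cilium genes have the longest red bars of the lists shown (50 and 20.9%), NHGs, F-box and MATH genes the longest blue bars (21.1, 19.1 and 13.1%), and Argonaute and piRNA pathway genes have none.

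The study groups as NHGs the genes whose mRNA was heat-inducible and held down by nuclear RNAi. The high-stringent NHGs were chosen on mRNA of the same strains, so that their counts are not independent evidence of a direction. Before heat, 8 of 38 tested had lower siRNA and 5 higher (21.1 and 13.2%, beside 4.1 and 3.72% of all genes tested). Of the 38 genes, 5 had the same values as another gene, and with copies counted once 7 were lower and 5 higher. Their median was -0.06 and turned to 0.23 under the scaling over all tested genes. glit-1, a gliotactin homolog, had 8.02, 8.07 and 5.86 RPKM in the mutant libraries, against 98.2, 117 and 119.6 RPKM in WT (log2 fold change -3.76 ± 0.38, adjusted p = 1.2e-07), and F40D4.13, which the study places in a CER15 element, had 62.1, 54.2 and 45.6 RPKM in the mutant libraries, against 589, 486 and 489.6 RPKM in WT (log2 fold change -3.254 ± 0.17, adjusted p = 1.5e-12). In contrast, ZC15.1 had 233, 209 and 151 RPKM in the mutant libraries, against 18.5, 39.1 and 21.0 RPKM in WT (log2 fold change 2.92 ± 0.23, adjusted p = 1.5e-09). The NHGs ZC15.3 and ZC15.10 were not called (247 against 364 RPKM, adjusted p = 0.077, and 811 against 593 RPKM, adjusted p = 0.26).

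F41G4.5 and F41G4.7, both placed in a CER12 element, differed as well, with 124 against 23.9 RPKM (log2 fold change 2.37 ± 0.23, adjusted p = 6.9e-08) and 232 against 433 RPKM (log2 fold change -0.90 ± 0.23, adjusted p = 0.01) in mutant and WT. pdfr-1, a neuropeptide receptor gene, rose, with 236 ± 15.6 RPKM in the mutant and 54.1 ± 6.83 RPKM in WT (log2 fold change 2.11 ± 0.28, adjusted p = 5.3e-06; SD, n = 3). Of the 6 NHGs that the study describes as cumulative over generations at 23 °C, 1 was lower at this stage, F40D4.13, and 0 were higher (0 at an unadjusted p under 0.05). This is 16.7% lower, beside 4.1% of all genes tested, and rests on 1 gene. Y77E11A.3 and R09H3.3 did not pass the test, with 1168 against 1143 RPKM (adjusted p = 0.93) and 485 against 464 RPKM (adjusted p = 0.81).

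Called genes were unevenly placed along the genome. Among genes of at least 5 reads, 151 of 685 on X were lower and 11 higher (22 and 1.61%), whereas on chromosome IV 59 of 1453 were lower and 145 higher (4.06 and 9.98%). The other autosomes had 4.21 to 8.85% lower and 6.85 to 8.82% higher. Over all chromosomes 7.34% of such genes were lower and 7.5% higher. Called genes were often neighbours of each other. A gene directly next to another called in the same direction was found for 120 of 696 higher and 151 of 714 lower coding genes (17.2 and 21.1%), beside 6.86 and 6.64% of all tested coding genes that have such a neighbour. Overlapping or duplicated genes were not removed for these shares. There were 6 runs of at least 3 consecutive higher genes and 11 runs of lower genes.

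A lower run of 5 genes on chromosome V held Y102A5C.36, fbxa-148, fbxa-111, fbxa-112 and clec-238, with means of 119.4 against 324 RPKM, 3.85 against 23.97 RPKM, 56.8 against 161 RPKM, 2.29 against 51.4 RPKM and 33.6 against 666 RPKM in mutant and WT. On chromosome III fbxa-63, fbxa-76, fbxa-77 and fbxa-208 fell together, with 41.7 against 144 RPKM, 27.3 against 91.5 RPKM, 6.48 against 31.4 RPKM and 13.4 against 54.8 RPKM. The run on chromosome II of F15D4.4, F15D4.5 and F15D4.6 included one of the most abundant lost targets, F15D4.5 (289.6, 306 and 387 RPKM in the mutant libraries, against 1937, 1851 and 1588 RPKM in WT, log2 fold change -2.45 ± 0.13, adjusted p = 2.4e-12).

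Gained runs were shorter and often had a strong gene beside weak ones. On chromosome IV C27D8.1, idpp-7, T23F6.2 and T23F6.3 had 20.7 against 4.88 RPKM, 181 against 7.02 RPKM, 12.1 against 2.97 RPKM and 170.1 against 10.4 RPKM, and on the same chromosome W02A2.8, Y62E10A.3 and srsx-25 had 145 against 21.8 RPKM, 348 against 15.31 RPKM and 245 against 4.61 RPKM. On chromosome III the atypical MAP kinase gene mapk-15, with 286, 267 and 242 RPKM in the mutant libraries, against 16.1, 9.38 and 7.60 RPKM in WT (log2 fold change 4.53 ± 0.29, adjusted p = 5.9e-11), lay between clc-10 (25.2 against 4.81 RPKM) and attf-4 (9.47 against 4.45 RPKM). T23F6.2 and attf-4 held 5.66 and 11.9 reads on average in the mutant, and their calls were lost under 6 alternatives each.

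The generations were also compared one at a time. When each generation's mutant library was set against its WT library, the median log2 fold change of the higher genes was 1.7, 1.87 and 2.15 in G1, G2 and G3, and that of the lower genes -1.6, -1.52 and -1.67. At least 2-fold was reached by 79.4, 87.9 and 92.4% of the higher and 81.8, 81.3 and 86.0% of the lower genes. These genes were called on the same libraries, so the values are a description only. The higher genes had larger changes in G3 than in G1, and the lower genes differed little between generations. The opposite sign was seen at 7, 1 and 3 of the higher genes and at 4 of the lower genes in each generation.

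The same populations were followed for 9 more generations. Their libraries entered the same fit and set most of its estimate of the spread, and they come from the same lineages, so that the calls of the phases are not independent of each other (the 6 libraries alone gave 675 higher and 758 lower genes). Of the 738 genes that were higher at 15 °C before heat, 349 were called higher in 23C-G1 to G3 (47.3%), 321 in 23C-G4 to G6 (43.5%) and 396 in p15C-G1 to G3 (53.7%). Over all genes tested the shares called higher in those phases were 2.5, 2.68 and 3.65%. Of the 813 lower genes 389, 357 and 511 were called lower again (47.8, 43.9 and 62.9%), beside 3.2, 3.18 and 4.34% of all genes. At most 9 genes of either set were called in the opposite direction in any phase. The call held in all 4 phases for 270 higher and 260 lower genes, and it was made only before heat for 285 and 202. A call in 1 phase alone does not show that the phases differ.

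In the later phases bbs-5 had 713 against 15.9 RPKM, 789 against 22.8 RPKM and 663 against 18.6 RPKM in mutant and WT at 23C-G1 to G3, 23C-G4 to G6 and p15C. trp-4 had 0.997 against 171 RPKM, 1.68 against 175 RPKM and 1.33 against 102.6 RPKM in the same phases, and tbc-6 had 488 against 17.1 RPKM, 373 against 14.9 RPKM and 512 against 23.3 RPKM. All 3 kept the direction they had before heat in each phase. seld-1 had 129.5 ± 7.79 RPKM in the mutant and 79.6 ± 11.2 RPKM in WT at p15C (SD, n = 3), a smaller difference than before heat (difference of log2 fold changes 2.68 ± 0.33, adjusted p = 9.4e-05). At dlk-1 the loss was likewise smaller at p15C, with 26.4 ± 8.37 RPKM in the mutant and 131 ± 14.1 RPKM in WT (-2.82 ± 0.28, adjusted p = 2.0e-05).

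Whether the effect of the mutation differed between phases was tested by interaction terms. Against p15C, the effect before heat differed at 245 genes (1.23% of the genes tested), more positive before heat at 98 (0.494%) and more negative at 147 (0.741%). Against the mean of both heat phases it differed at 479 genes (2.41%), 272 more positive (1.37%) and 207 more negative (1.04%). Animals at 23 °C were collected 50 to 55 h after L1 release, so that temperature and hours of growth cannot be told apart in the second test. Of the genes called higher before heat, the effect was more positive there than at p15C at 56 and more negative at 21. Of those called lower, it was more negative before heat at 44 and more positive at 9. These counts include genes whose effect reversed at p15C, such as Y53F4B.10 (log2 fold change 1.24 before heat and -2.76 at p15C). The interaction uses the same 15C libraries as the call, so these counts are not independent of it.

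nadk-1, the NAD kinase gene, had the largest difference between phases among the genes lower before heat. Before heat it had 3.53, 6.16 and 5.09 RPKM in the mutant libraries, against 181, 210.4 and 152 RPKM in WT (log2 fold change -4.95 ± 0.46, adjusted p = 2.3e-08). At 23C-G4 to G6 it had 575 ± 65.1 RPKM in the mutant and 74.9 ± 13.3 RPKM in WT, and at p15C 284 ± 148 RPKM in the mutant and 138.6 ± 29.3 RPKM in WT (SD, n = 3). The mutant was thus far below WT before heat and above it in late heat, while the difference at p15C did not pass the test (adjusted p = 0.31). The interaction was -5.86 ± 0.65, adjusted p = 2.4e-05 against p15C.

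Y53F4B.10, one of the high-stringent NHGs, went the opposite way. Before heat it had 229.9, 269 and 275 RPKM in the mutant libraries, against 96.9, 111 and 117 RPKM in WT, a gain that just passed the threshold (log2 fold change 1.24 ± 0.40, adjusted p = 0.053) and was lost without mutant G2 or G3 or WT G1 or G2. At p15C it had 21.8 ± 4.27 RPKM in the mutant and 155 ± 38.9 RPKM in WT, where the mutant was the lower one. C44B12.6, another NHG, likewise had 405, 457 and 541 RPKM in the mutant libraries, against 118, 94.0 and 93.5 RPKM in WT before heat (log2 fold change 2.19 ± 0.28, adjusted p = 3.7e-06) and 47.4 ± 7.18 RPKM in the mutant and 113 ± 15.2 RPKM in WT after it.

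ttn-1, the titin gene, carried siRNA mainly in WT at 15 °C, with 0.290, 0.560 and 0.540 RPKM in the mutant libraries, against 27.2, 30.8 and 25.6 RPKM in WT before heat (log2 fold change -4.304 ± 0.34, adjusted p = 1.8e-09), 0.170 against 0.427 RPKM and 0.213 against 0.267 RPKM in mutant and WT in the heat phases, and 0.393 against 18.2 RPKM at p15C. dot-1.3, a gene of the DOT1 histone methyltransferase family, had 30.1, 48.2 and 64.9 RPKM in the mutant libraries, against 3.62, 2.46 and 5.68 RPKM in WT before heat (log2 fold change 3.29 ± 0.44, adjusted p = 8.4e-06) and 31.3 against 36.1 RPKM at p15C. asm-3, an acid sphingomyelinase gene, gained more later, with 16.8 against 5.19 RPKM before heat and 296 against 4.68 RPKM at 23C-G4 to G6 in mutant and WT.

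**Figure D5:**
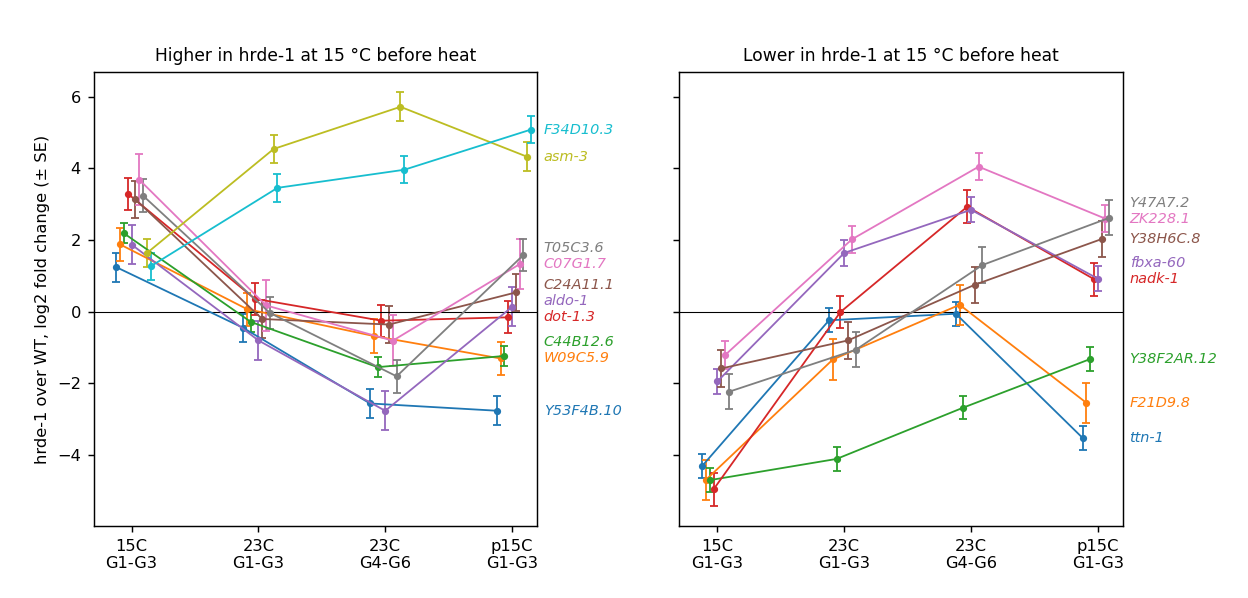
Effect of the hrde-1 mutation (mutant over WT, log2 fold change on the RPKM + 1 scale, ± SE) in 4 phases (15C, 23C-G1 to G3, 23C-G4 to G6 and p15C) for the genes with the largest differences between phases, with those higher before heat on the left and those lower before heat on the right. nadk-1 lies at -4.95 before heat and above 0 in late heat and at p15C, ttn-1 is near 0 only at 23 °C, and F34D10.3 and asm-3 have larger gains after the shift to 23 °C.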

How the data were processed

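Small RNA of 20167 genes was measured in 24 libraries, of which 6 (hrde-1 and WT, 15C-G1 to G3, repeat 2) are compared here. The authors aligned reads to the WS190 mRNA database with Bowtie 0.12.7, kept perfect antisense alignments, and deposited RPKM, which are reads normalized to the total of the library and to exon length. How reads with several matches were handled is not stated, and 1963 genes shared all values with another gene. The transcript with the highest mean stood for its gene. Samples were grouped by their labels.

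Since the deposited values are RPKM and not counts, log2(RPKM + 1) was fitted with limma 3.58.1 (R 4.3.3, trend in eBayes, residual degrees of freedom 16) with a mean per genotype and phase over all 24 libraries, for 19839 genes that averaged 1 RPKM or more. A call needed a change of 2-fold or more together with an adjusted p of 0.1 or less. Tests were two-sided. Differences between phases were interaction contrasts of the same fit. Read numbers were inferred from the steps between low values and gene lengths. For 1678 genes the exon length was used although the steps did not match it. For 496 genes, msp-3 among them, the lowest library was taken as 1 read. Read numbers of these genes are approximate, also in the filter of 5 reads. In the 6 libraries 1 read over 1 kb was worth 1.296 to 2.705 RPKM and 32.03 to 41.15% of transcripts were at 1 read, so that changes of rare siRNAs were hard to detect. Where all libraries of a genotype were at 1 read, the fold is a bound against 3 reads per library, and read numbers cover counting only. The procedure was tested on simulated data.

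The members and gene lists were chosen with earlier results of these data known. Lists came from gene names and general knowledge of C. elegans, and the NHGs from the study. Named genes were hrde-1, and among called genes without overlap those with the 10 largest changes (at least 100 RPKM) and the 10 highest levels per direction. Further named genes were 10 abundant genes with a log2 fold change under 0.3 in size, the 5 largest differences between phases per test and direction, up to 4 called members per list, RNAi pathway members, and runs of at least 3 neighbouring called genes. Others, such as snb-1, vit-2 and uncalled NHGs, were chosen after their values were seen. Chromosomes and gene order came from RefSeq (WBcel235), with 97% of genes matched, and no coordinates are given because builds differ. Alternatives were a pseudocount of 10 RPKM, other filters and scalings, the read floor taken off, a generation block, the 6 libraries alone, copies counted once, and each library left out.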

Additional observations from a re-analysis of the deposited data

Results flagged for a closer look

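The effect of the hrde-1 mutation before heat differed from its effect in another phase, by the interaction test, at the following genes, given as differences of log2 fold changes ± SE. No explanation was tested. A positive difference means an effect that was more positive before heat, whatever its size. Against p15C, among genes that were higher before heat, the difference was 4.01 ± 0.56, adjusted p = 3.5e-04 for Y53F4B.10 and 3.45 ± 0.63, adjusted p = 0.0047 for dot-1.3. It was 3.42 ± 0.39, adjusted p = 4.1e-05 for C44B12.6 and 3.18 ± 0.66, adjusted p = 0.013 for W09C5.9. For F34D10.3 it was -3.82 ± 0.54, adjusted p = 3.6e-04, more positive at p15C. The mutant was called lower at p15C for Y53F4B.10, C44B12.6 and W09C5.9 (log2 fold changes -2.76, -1.23 and -1.31). Among genes that were lower before heat it was -5.86 ± 0.65, adjusted p = 2.4e-05 for nadk-1, -4.86 ± 0.69, adjusted p = 3.6e-04 for Y47A7.2, -3.81 ± 0.54, adjusted p = 3.6e-04 for ZK228.1, -3.61 ± 0.72, adjusted p = 0.0096 for Y38H6C.8 and -3.38 ± 0.47, adjusted p = 3.2e-04 for Y38F2AR.12. The mutant was above WT at p15C for Y47A7.2, ZK228.1 and Y38H6C.8 and below it for Y38F2AR.12 (48.1 against 122 RPKM). For nadk-1 the difference at p15C did not pass the test (adjusted p = 0.31).

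Against the mean of both heat phases, the difference was 4.16 ± 0.55, adjusted p = 1.1e-04 for T05C3.6 and 4.00 ± 0.86, adjusted p = 0.012 for C07G1.7. It was 3.66 ± 0.67, adjusted p = 0.0031 for the aldolase gene aldo-1 and 3.41 ± 0.64, adjusted p = 0.0041 for C24A11.1. These 4 effects were more positive before heat. For asm-3 the difference was -3.49 ± 0.49, adjusted p = 2.1e-04, more positive at 23 °C. For lower genes it was -6.42 ± 0.56, adjusted p = 7.8e-07 for nadk-1, -4.24 ± 0.47, adjusted p = 1.9e-05 for ZK228.1, -4.19 ± 0.43, adjusted p = 8.7e-06 for fbxa-60, -4.16 ± 0.42, adjusted p = 6.9e-06 for ttn-1 and -4.12 ± 0.69, adjusted p = 0.0013 for F21D9.8. The 15C level of fbxa-60 was 66.6 against 257 RPKM in mutant and WT, and its level at 23C-G4 to G6 was 318 against 43.5 RPKM. Several of these genes held few reads before heat, such as Y38H6C.8 with 1.00 and 2.67 reads on average in mutant and WT.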

How the results depend on the processing

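No named gene that was called changed its direction under an alternative, while medians of some gene lists changed sign between alternatives (Argonaute, RNA-dependent RNA polymerase, nuclear RNAi, cilium, NHG, cuticlin, hedgehog-related and ugt, cyp and gst genes, intestine, muscle and sperm markers). At 15 °C before heat, 475 genes were higher and 439 lower with a pseudocount of 10 RPKM, and 1119 were higher and 510 lower with median-ratio scaling over all tested genes, against 738 and 813 as reported. Leaving out 1 library gave 582 to 1008 higher and 649 to 886 lower genes. For the difference from p15C, genes with a more negative effect before heat numbered 85 with that scaling and 84 with the read floor taken off, against 147. For the difference from 23 °C, the more positive genes numbered 648 with that scaling, against 272, and the more negative ones 122 with a pseudocount of 10 RPKM, 85 with that scaling and 115 with the floor taken off, against 207. Without 1 library the more negative genes numbered 134 to 250, the lowest without mutant G3. The cause of these shifts was not tested. Of the values for 192 named results at 15 °C under the alternatives, 208 lost their call and 2650 kept their side of the threshold, and of those for 20 differences between phases 1 lost its call and 279 kept it. Generation numbers did not pair the libraries throughout. Deviations of same-numbered mutant and WT libraries correlated at 0.36, 0.0785 and 0.178 over 8603 genes. Mutant G1 and G2 correlated best with their own number, and mutant G3 with another. With generation as a replicate block 834 genes were higher and 850 lower, and 131 and 176 genes differed from p15C and 364 and 299 from 23 °C in the positive and negative direction. The block also gave 24 major sperm protein genes and 11 other sperm genes higher, against 15 and 6 as reported. With the 6 libraries alone no difference between phases could be computed. Depth limits what was detectable, since 4220 genes were at 1 read in all 6 libraries.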
